A study of Glycine max with 4 samples.

Results

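Strong start regions used evenly in both tissues are stretches of the soybean genome in which RNA starts were read at a high and similar level in root and in shoot. They were found by joining the authors' root and shoot tag clusters on the same sequence and strand that lay at most 100 bp apart, and by summing the pooled root and pooled shoot TPM (the depth-scaled tag level deposited for each tissue) inside each joined region. A region was kept when both sums reached 30 TPM and differed by at most 1.5-fold. This gave 906 members of 23330 regions (3.88%), or 44.9% of the 2017 regions with 30 TPM or more in both tissues. Of the other strong regions, 805 were over 1.5-fold higher in root and 306 over 1.5-fold higher in shoot. The 2 sums chose the members, so the levels below describe them and their similarity in root and shoot is no finding.

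The data were 4 nanoCAGE libraries of Williams 82, the soybean (Glycine max) cultivar of the reference genome, with 2 libraries from roots and 2 from shoots. All plants had the same genotype and no added treatment is named. They were 2 weeks old and were kept in cycles of 12 h of white light, at 300 µmol per square metre per second, and 12 h of dark, and 1 µg of total RNA went into a library. Whether the libraries numbered 1 and 2 of a tissue derive from different plants is not stated, so every p-value reflects the variation among these 4 samples, and that may be technical. In whole organs, fewer cells of a type and less RNA per cell cannot be told apart. Positions are those of the files (plus or minus strand in brackets). Gene names were not attached to them, so the tissues were not checked against marker genes.

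A promoter directs RNA polymerase II to begin transcription, and the base at which a transcript begins carries the cap. NanoCAGE reads the capped 5′ ends, so that the position of a tag marks a start. More tags mean more capped RNA present from that start, or more amplified copies of it. Some promoters begin transcription at a single base and others over a wide band, and in plants the narrow kind is often found with a TATA box. Genes that every cell needs, such as those for protein synthesis, are known for activity in all organs, and a gene can also reach the same level in 2 organs from different starts.

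The members made up nearly the same part of both tissues, which their choice by similar sums favours. They held 17.04% of all root TPM and 17.03% of all shoot TPM. The count table, which gives tags for each library on sequences 1 to 12 and part of sequence 13, covered 610 of them, and these held 15.9% and 16.0% of the tags of the root libraries and 16.4% and 16.2% of those of the shoot libraries. The other 296 members have only the pooled value of each tissue and no replicate check. The libraries held 655935 to 1000476 tags in the covered part.

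Most members were of moderate strength. The median was 74.8 TPM in root and 68.8 TPM in shoot, and the highest sums were 4915 TPM in root and 4584 TPM in shoot. Both sums reached 100 TPM in 279 members, 500 TPM in 33 and 1000 TPM in 6. Root was the higher tissue in 536 members and shoot in 370, and 251 members differed by at most 1.1-fold. The median log2 difference, shoot minus root, was -0.10, against -0.36 in the 6872 regions with 5 TPM or more in both tissues, of which 41.2% lay within 1.5-fold. Among strong regions with a geometric mean of 100 to 200 TPM, 35.3% were members, and with 500 TPM or more, 31.5% were. The share was 69.0% between 30 and 50 TPM, where the limit of 30 TPM in both tissues leaves little room for a large ratio.

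**Figure D1:**
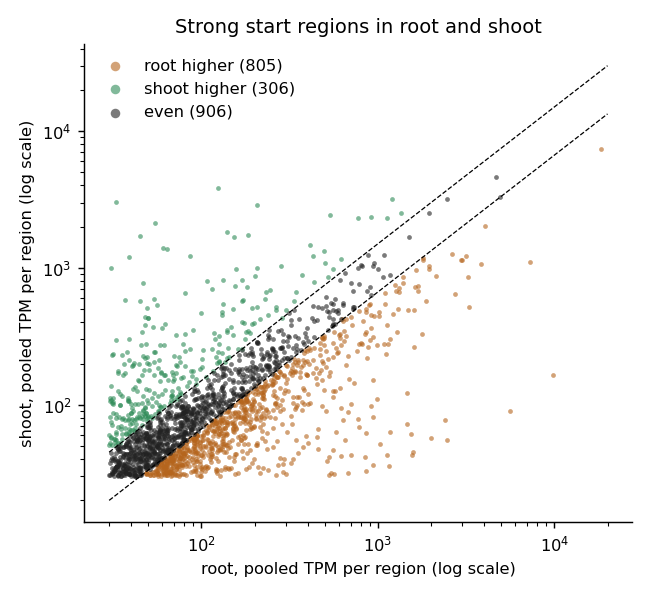
Pooled root TPM (x axis) against pooled shoot TPM (y axis) of the 2017 strong regions, both on log scales, with 1 point per region and dashed lines at a 1.5-fold difference. The 906 even regions fill the band between the lines up to sums of 4915 TPM in root and 4584 TPM in shoot, with 805 regions below it and 306 above.

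The limits fell within a continuous range of values. At sequence 6 (minus), bases 10182321 to 10182332 a member just inside had 43.3 TPM in root and 30.07 in shoot, and at sequence 10 (plus), bases 132954 to 133187 a region just outside had 35.2 and 29.9. At the upper limit the member at sequence 16 (minus), bases 38369726 to 38369804 had a ratio of shoot to root of 1.499, and the region at sequence 8 (plus), bases 10298820 to 10299149 one of 1.504. At the lower limit the ratios nearest to it were 0.6671 inside, at sequence 16 (minus), bases 1018138 to 1018159, and 0.6665 outside, at sequence 2 (minus), bases 4198143 to 4198209. The pooled tags behind a member numbered at least 105 in root and 93 in shoot, with medians of 260.5 and 213.5. The 95% counting interval of the ratio (exact binomial) lay wholly inside the limits for 532 members and reached over a limit for 374, whose side of the limit is within counting error. Amplified reads carry no molecular identifiers here, so intervals and floors describe counting error alone.

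The strongest member lay at sequence 19 (minus), bases 40020086 to 40020393, with 4650 TPM in root and 4584 TPM in shoot. Of its 308 bp, 1 start at 40020389 took most of the use, with 75.9% of root tags (95% Wilson interval 75.2 to 76.6) and 74.4% of shoot tags (73.7 to 75.1). The fourth, at sequence 14 (plus), bases 377435 to 377536, had 1947 TPM in root and 2520 in shoot and was the most concentrated of the 10 strongest in both tissues. Its start at 377514 held 84.04% of root tags (83.1 to 84.9) and 85.7% of shoot tags (84.9 to 86.4). The fifth, at sequence 15 (minus), bases 4417836 to 4417967, had 1492 TPM in root and 1688 in shoot. There the most used start held 26.3% of root tags (25.1 to 27.5) and 27.5% of shoot tags (26.4 to 28.8), and 10% to 90% of the tags spread over 48 bp in root and 47 bp in shoot. These 3 regions lay outside the count table.

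The second strongest member, at sequence 7 (minus), bases 15415571 to 15415690, held 9435 and 7608 tags in the root libraries and 6157 and 4306 in the shoot libraries. As CPM, the depth-scaled count, with scaling by the trimmed mean of M values (TMM), these were 9928 and 9036 in root and 8973 and 9004 in shoot. All 4 values lay close together on this scale, while the pooled TPM of 4915 and 3296 put the region next to the lower limit of the ratio. Scaled to the tags in tested regions, the CPM were 11219 and 10444 in root and 8064 and 7670 in shoot. The start at 15415634 held 44.5% and 42.3% of root tags and 48.4% and 46.5% of shoot tags.

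The third, at sequence 6 (plus), bases 11193508 to 11193548, held 4265 and 4286 tags in root and 5001 and 5071 in shoot. Its scaled levels were 4488 and 5090 CPM in root and 7289 and 10604 CPM in shoot, so that the shoot libraries stood further apart than the root libraries and both above them. The share of the start at 11193519 was nearly constant, with 67.6% and 68.04% in root and 67.4% and 69.4% in shoot. It was a narrow region, with 10% to 90% of the pooled tags within 3 bp in both tissues.

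Of the other 5 among the 10 strongest, 4 had the same most used start in root and shoot. At sequence 13 (plus), bases 43576865 to 43576955 the CPM were 1949 and 2258 in root and 3505 and 3111 in shoot, and the main start rose from 34.0% and 35.7% of root tags to 40.6% and 41.6% of shoot tags. At sequence 13 (plus), bases 36687096 to 36687174 the CPM were 1798 and 1614 in root and 3399 and 3344 in shoot. At sequence 4 (minus), bases 773019 to 773336 they were 1821 and 1853 in root and 2988 and 2911 in shoot, the closest root replicates of the 7 covered regions. At sequence 6 (minus), bases 14495838 to 14495900 they were 2211 and 1645 in root and 2469 and 2963 in shoot. In these 4 regions both shoot libraries lay above both root libraries on this scale. Scaled to the tags in tested regions, the last of them overlapped, with 2498 and 1901 CPM in root and 2219 and 2524 in shoot. The others kept the order.

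The exception was the eighth, at sequence 2 (plus), bases 14458859 to 14458906, with 2642 and 1827 CPM in root and 2406 and 2371 CPM in shoot. The tissues overlapped, because the root libraries lay on either side of the shoot libraries. Its main start moved by 2 bp, from 14458861 in root to 14458863 in shoot, and the root start held 32.5% and 30.4% of root tags against 22.1% and 21.8% of shoot tags.

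**Figure D2:**
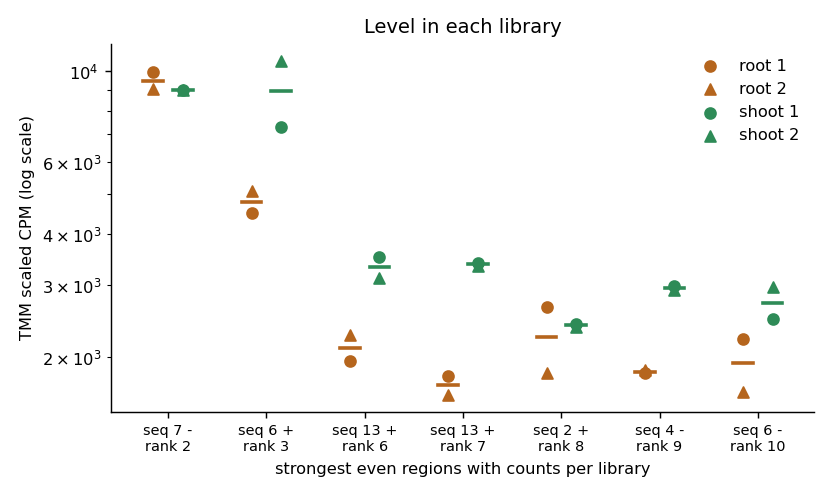
TMM scaled CPM (y axis, log scale) of the 7 strongest even regions that the count table covers, named by sequence, strand and rank. Circles are replicate 1, triangles replicate 2 and bars the mean of 2 libraries, and both shoot libraries lie above both root libraries in 5 of the 7 regions, but not on sequence 7 or sequence 2.

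Whether a region counted as even depended on the scaling, because the rule compares TPM and the TMM factors were 1.13 and 1.16 in root and 0.899 and 0.852 in shoot. In CPM scaled to the tags in tested regions, the median log2 difference of the 610 covered members between the tissue means was -0.02. On the TMM scale it was 0.37 higher in shoot, and 444 of the 610 (72.8%) stayed within 1.5-fold, while 278 regions that TPM placed higher in root entered. Over all 7183 regions tested, the median log2 difference moved from 0.06 with TMM to -0.32 with total tags. Total tags, here and below, are the tags in tested regions. In edgeR's quasi-likelihood test with TMM and Benjamini-Hochberg adjustment at 0.05, 103 of the 610 covered members were called, all higher in shoot, where the test called 29.5% of the 7183 regions higher in shoot, 23.4% higher in root and 52.9% in all. Scaled to total tags, edgeR called 0 members, with 13 at an unadjusted p below 0.05, and DESeq2 called 9. Leaving out a shoot library lowered the number to 43 (replicate 1) or 55 (replicate 2). The rule used this contrast, so nothing is read from these counts.

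The split of the tags between replicates was not used by the rule. The 2 libraries of a tissue differed by a median of 0.20 on the log2 scale in root and also 0.20 in shoot, over 610 members. Of these, 551 lay within 1.5-fold in root and 562 in shoot. The rule did use the ratio between tissues, so the root-shoot pairs only describe the members. Scaled to the tags in tested regions, between 496 and 537 members were within 1.5-fold in each of the 4 root-shoot pairs, and 363 (59.5%) were in all 4. On the TMM scale 285 were. Replicates differed by over 1.5-fold in 9.67% of members in root and 7.87% in shoot. This held for 17.4% of the 558 root-higher regions in root and 18.8% in shoot, where their median levels were 162 and 63.0 TPM. It held for 27.2% of the 206 shoot-higher regions in root and 10.2% in shoot, where the medians were 54.4 and 172 TPM. These levels are over all regions of a class, and the part of depth and of the choice by ratio in the contrast was not tested.

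**Figure D3:**
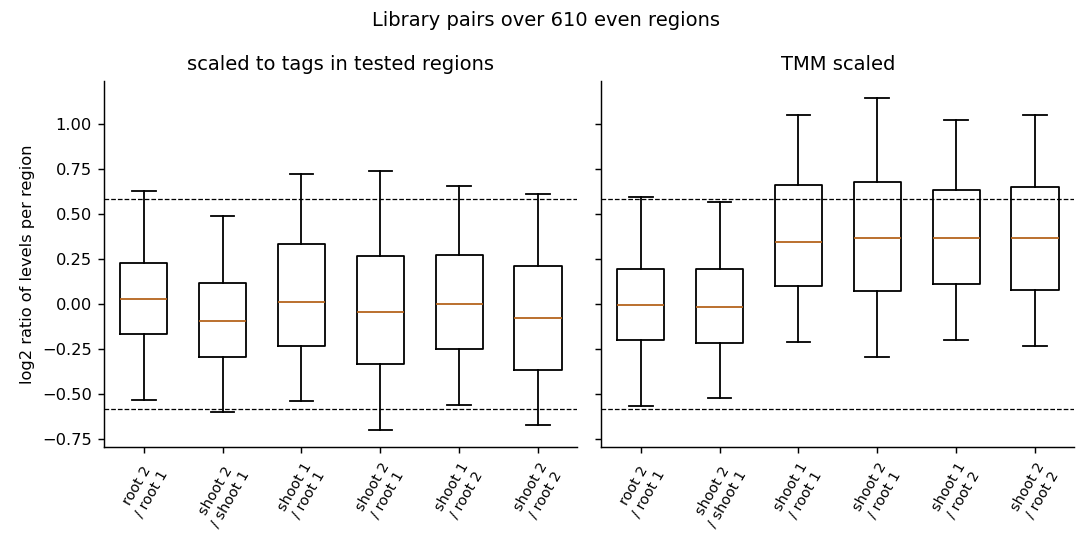
Log2 ratio of levels (y axis) for each of the 6 pairs of libraries over the 610 covered even regions, scaled to tags in tested regions (left) and by TMM (right). Boxes show the quartiles with the median, whiskers the 5th to 95th percentiles and dashed lines a 1.5-fold difference, and the 4 root-shoot medians lie near 0 on the left and at 0.34 to 0.36 on the right.

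A few members were even in the pooled sums although their root libraries were far apart. At sequence 3 (minus), bases 22574852 to 22575064 the tags numbered 208 and 49 in root and 152 and 158 in shoot, or 219 and 58.2 CPM against 222 and 330 CPM. At sequence 10 (minus), bases 38693564 to 38693572 they numbered 141 and 34 in root and 136 and 95 in shoot. At sequence 5 (plus), bases 676440 to 676447 the order was the other way, with 65 and 159 in root and 123 and 61 in shoot. These 3 regions were even in the sum of unlike root libraries, and they had the largest replicate ratios, 1.91, 1.88 and -1.47 on the log2 scale for replicate 1 over replicate 2, among covered members with 100 or more tags in the tissue.

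The members ranged from a single base to broad bands of starts. The joined regions had a median span of 76 bp, with quartiles of 40 and 122.75 bp and a maximum of 902 bp, and 70 were 10 bp or less while 168 were 150 bp or more. The span depends on weak outlying starts, so the width that holds 10% to 90% of the tags was taken in each library after thinning to 50 tags, which 507 members allowed. Its median was 32 and 30 bp in the root libraries and 28 bp in both shoot libraries. The difference of -3.0 bp, shoot minus root, had an exact two-sided permutation p of 0.333 over the 4 libraries, the smallest this design allows.

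Members were wider than the strong regions that were higher in root. The median width of the 429 root-higher regions was 16 and 18 bp in root and 20 and 22 bp in shoot, below the members in each of the 4 libraries. The 177 shoot-higher regions had medians of 39, 35, 32 and 31 bp in the same order, above the members in each library, and with 100 tags per library, which 253 members and 79 shoot-higher regions allowed, they fell below them at 22 to 25 bp against 26 to 30 bp. Members made up 38.5% of the 179 strong regions narrower than 5 bp and 50.4% of the 139 between 60 and 100 bp. Among the 104 of 100 bp or more their share was 47.1%. Root-higher regions made up 45.8%, 28.8% and 28.8% of the same sets. The regions are not replicates, and these values describe the libraries without a test.

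**Figure D4:**
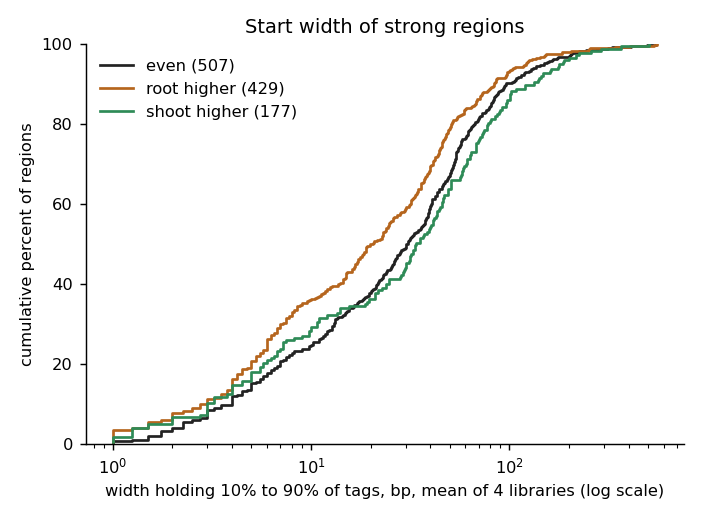
Cumulative percent of regions (y axis) by the width holding 10% to 90% of tags, as the mean of the 4 libraries in bp (x axis, log scale), for even, root-higher and shoot-higher strong regions with 50 or more tags in each library. The curve of the 429 root-higher regions lies to the left of that of the 507 even regions over most of the range.

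In 4 of the 507 members the 10% to 90% width was 1 bp in every library, although weaker starts lay around the main one, and the 3 strongest of them are given here. At sequence 4 (plus), bases 53257718 to 53257794, with 723 TPM in root and 514 in shoot, the main start held 96.5% of pooled root tags and 98.1% of shoot tags. At sequence 12 (minus), bases 3132389 to 3132392, with 634 and 549 TPM, it held 99.1% and 99.3%, and at sequence 8 (plus), bases 48800686 to 48800694, with 94.04 and 87.5 TPM, 93.6% and 91.1%. Of the 507 members, 69 were narrower than 5 bp on average and 49 were 100 bp or more.

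The widest member, at sequence 9 (minus), bases 42812052 to 42812712, measured 565, 544, 592 and 484 bp in root replicates 1 and 2 and shoot replicates 1 and 2. Its most used start held no more than 4.47% of root tags and 3.53% of shoot tags. At sequence 6 (plus), bases 12186617 to 12187143 the widths were 498, 498, 496 and 496 bp, and at sequence 8 (plus), bases 44497274 to 44497808 they were 482, 487, 475 and 475 bp. In these last regions the libraries of a tissue differed by at most 5 bp, and the extent was nearly the same in root and shoot.

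Most members also began transcription at the same base in both tissues. In the pooled TPM, 725 of 906 (80.02%) had their most used start in common. The share was 87.0% in the root-higher and 81.7% in the shoot-higher strong regions, without matching for depth. Of the 181 other members, 52 moved by 5 bp or less and 101 by 20 bp or more. The shoot start lay downstream in 99 and upstream in 82. With every library thinned to 50 tags, the most used start was the same in 74.6% to 75.5% of 507 members for the root-shoot pairs, in 77.1% for root against root and in 76.3% for shoot against shoot. At this depth, replicates of a tissue disagreed nearly as often as libraries of different tissues. Without thinning, the shares were 78.7% to 80.5% between tissues, 87.0% within root and 84.02% within shoot. Thinned to 50 tags, the root-shoot pairs agreed in 76.5% to 78.3% of 429 root-higher and 74.6% to 78.0% of 177 shoot-higher regions. These shares lay closer to those of the members than the pooled ones did.

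The profiles of starts lay slightly further apart between libraries of different tissues than between replicates. The distance between profiles was measured as the fraction of the 50 tags that would have to move to match the other library. It averaged 0.271 for the pair of root libraries, 0.264 for the pair of shoot libraries and 0.289 to 0.295 for the root-shoot pairs. Each root-shoot pair lay above both replicate pairs. This order was not particular to members. In root-higher regions the averages were 0.234 in root, 0.237 in shoot and 0.252 to 0.262 between tissues. In shoot-higher regions they were 0.270, 0.256 and 0.289 to 0.301. The median start of the shoot libraries lay wholly downstream of that of the root libraries in 40 members and wholly upstream in 55. Together these were 18.7% of 507. The same held for 16.0% of the 1114 regions with enough tags, members included, for 12.1% of root-higher and 16.9% of shoot-higher regions. With 2 libraries per tissue, order alone separates the tissues so in a fraction of up to 0.333. The same limit holds for the order of the distances, so no movement is read from these shares or distances. A gap of 10 bp or more appeared in 37 members (7.30%). It appeared in 5.75% of the 1114, 3.03% of root-higher and 7.91% of shoot-higher regions.

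The rule set the ratio of each region's sums. It thereby also bears on the ratios of single starts, which hold fewer tags, so these ratios only describe the members. Of 2339 starts with 10 TPM or more in either tissue, 1521 (65.03%) lay within 1.5-fold. This held for 12.4% of such starts in root-higher and 7.95% in shoot-higher strong regions, which were chosen for other ratios. In members, 9 starts were over 5-fold higher in shoot and 16 over 5-fold higher in root, and 2 members held starts of both kinds. Start use given the region's total, which the rule did not use, was tested with edgeR's diffSpliceDGE and a Simes p per region, adjusted by Benjamini-Hochberg over 5646 regions. It called 9 of 609 members (1.48%), where the test called 0.655% of all regions. The shares were 1.62% of 555 root-higher and 3.90% of 205 shoot-higher strong regions, which have more tags than most regions tested. At an unadjusted p below 0.05 there were 98 members. Only 2 were called without shoot replicate 1 and 3 without shoot replicate 2, and limma's diffSplice called 57 and edgeR's F test over positions 37, so the number is uncertain and members not called may still differ.

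The clearest change was at sequence 6 (plus), bases 13536375 to 13536513, with 147 TPM in root and 198 in shoot. The start at 13536454 held 105 of 285 and 82 of 226 tags in the root libraries (36.8% and 36.3%) and 17 of 371 and 13 of 247 in the shoot libraries (4.58% and 5.26%). The start at 13536497, 43 bp downstream, held 2.46% and 2.65% of root tags and 41.0% and 39.7% of shoot tags. The tissues did not overlap at either start, and the main start was exchanged within a region whose sums were even. The adjusted p was 1.57e-07 by diffSpliceDGE, and the highest over the alternatives was 0.00152, without shoot replicate 1.

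At sequence 8 (minus), bases 13162934 to 13163127, with 64.0 TPM in root and 79.1 in shoot, the start at 13162934 held 1 and 0 tags of 97 and 126 in root. A count of 0 allows a share of up to 2.38% in root replicate 2. In shoot it held 49 of 147 and 38 of 98 tags, 33.3% and 38.8%, and was the most used start there, 132 bp downstream of the one in root. The adjusted p was 1.59e-05 by diffSpliceDGE, and 0.00431 at the highest, without shoot replicate 2. These first 2 regions were called under all 10 alternatives.

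At sequence 13 (plus), bases 36931506 to 36931631, a strong member with 731 and 514 TPM, a minor start carried the call. The start at 36931514 held 44 and 47 tags in root (3.40% and 3.76%) and 6 and 1 in shoot (0.596% and 0.164%), while the main start at 36931588 stayed the same and went from 42.5% and 43.3% to 56.9% and 61.3%. The adjusted p of 0.00176 by diffSpliceDGE did not pass when a shoot library was left out (0.157 for replicate 1, 0.513 for replicate 2), and ran from 6.38e-05 to 0.513 over the 10 alternatives.

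At sequence 10 (plus), bases 4458982 to 4459187, with 81.2 and 104 TPM, the shoot libraries used a start 180 bp upstream of the root one. At 4458982 lay 2.99% and 3.36% of root tags and 32.4% and 29.7% of shoot tags. At 4459162 lay 46.3% and 32.9% of root tags and 13.7% and 22.03% of shoot tags. The adjusted p of 0.00430 by diffSpliceDGE was also lost on leaving out either shoot library (0.152 for replicate 1, 0.208 for replicate 2), and ran from 5.72e-06 to 0.208 over the 10 alternatives.

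The calls of the last 2 regions named by the rule depended on single libraries. At sequence 7 (minus), bases 45439919 to 45439961, the start at 45439928 held 8 of 59 and 11 of 66 tags in root and 0 of 78 and 0 of 51 in shoot, which allows up to 3.85% and 5.88%. At sequence 13 (minus), bases 11682966 to 11683104, the start at 11683059 held 20 of 233 and 41 of 223 tags in root (8.58% and 18.4%) and 6 of 250 and 3 of 161 in shoot (2.40% and 1.86%). The adjusted p values of 0.0220 and 0.0266 by diffSpliceDGE each passed in 5 of 10 alternatives. Both were lost without root replicate 2, shoot replicate 1 or shoot replicate 2, and reached 0.999 and 0.809 at the highest.

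**Figure D5:**
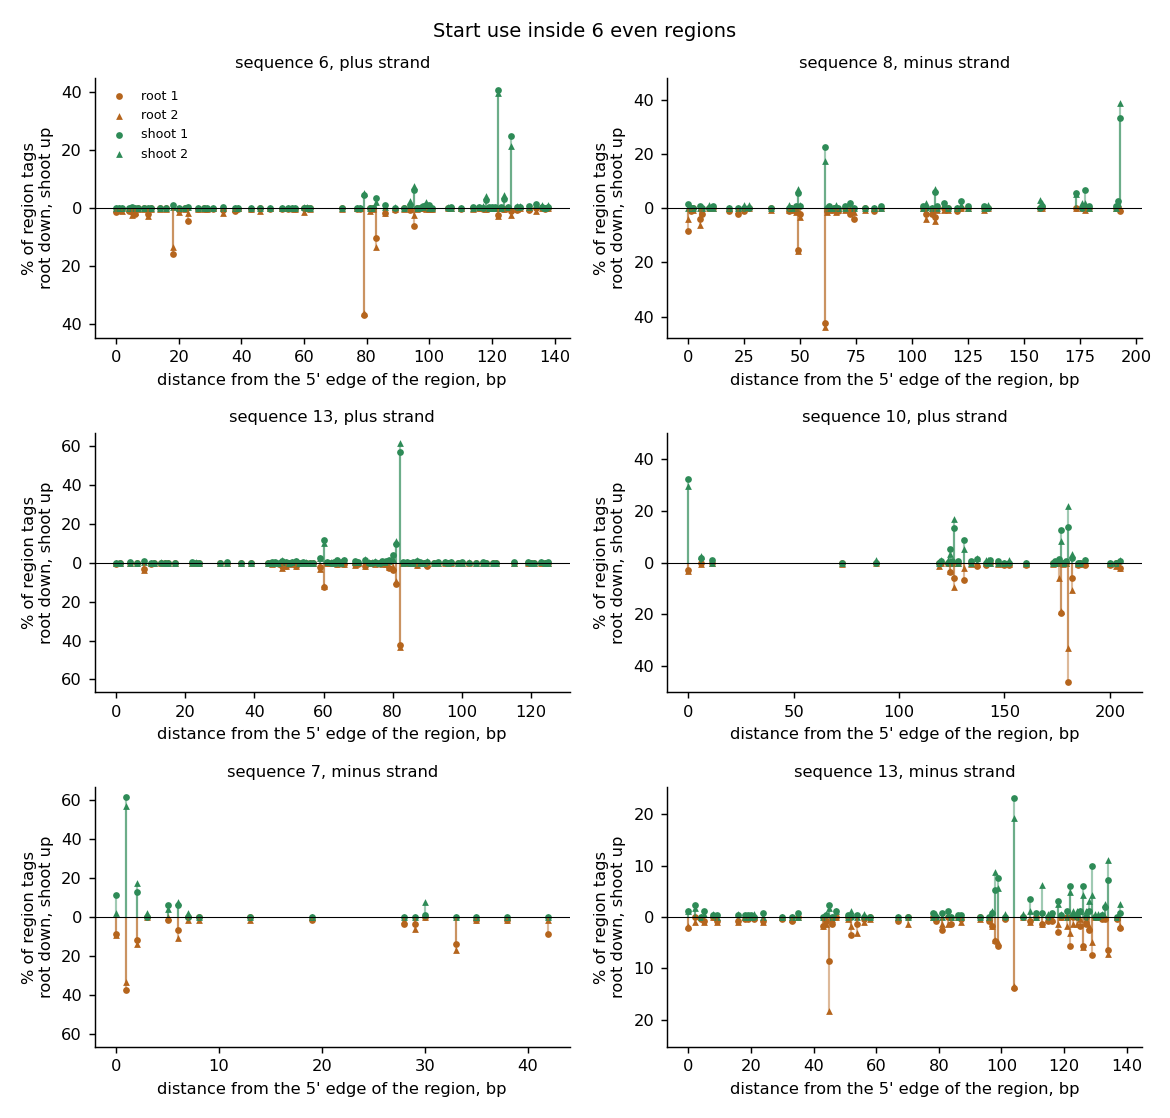
Percent of a region's tags at each start (y axis, shoot upwards and root downwards) by distance from the 5′ edge of the region in bp (x axis) in the 6 named regions, with circles for replicate 1 and triangles for replicate 2. On sequence 6 the tall root start and the tall shoot start are different bases 43 bp apart, and both replicates of a tissue show the same one.

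Few members had a main start in 1 tissue that was nearly unused in the other. A start with 20% or more of the pooled tags of 1 tissue and under 5% of the other was present in 4 of 906 members (0.442%), in 7 of 805 root-higher and in 4 of 306 shoot-higher strong regions. Of these 4 members, 3 were the regions on sequences 6, 8 and 10 described above, and the one on sequence 6 alone met the criterion in both directions. On sequences 8 and 10 the main root start still held 20.3% and 16.7% of pooled shoot tags. The fourth, at sequence 20 (minus), bases 43716553 to 43716719, had a start at 43716568 with 2.05% of root tags and 20.2% of shoot tags, and lay outside the count table.

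In 12 members the main start moved by 100 bp or more, among them the regions on sequences 8 and 10 described above, where the shoot start held 0.447% and 3.18% of pooled root tags. At sequence 7 (plus), bases 41700224 to 41700476, the root start held 11.1% of pooled root tags and 1.41% of pooled shoot tags. Its share was 5.69% and 17.3% in the root libraries and 1.26% and 1.65% in the shoot libraries. The region was also called for start use (adjusted p 0.0281 by diffSpliceDGE), a call that depended on single libraries. In other members both starts were used in both tissues. At sequence 14 (plus), bases 1451401 to 1451737, with 323 TPM in root and 418 in shoot, the root start held 22.7% of root tags and 6.90% of shoot tags, and the shoot start 109 bp upstream held 14.3% and 32.1%. At sequence 7 (minus), bases 4936276 to 4936592 the main start lay 191 bp further upstream in shoot, yet the root start held 19.8% and 18.1% and the shoot start 15.6% and 20.8%, so that the order of near-equal starts changed. The longest move, 515 bp at sequence 20 (minus), bases 50867787 to 50868364, was between starts with at most 8.55% of the tags. These regions were chosen by the distance after their values were seen.

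The members were spread over the whole genome. Each of the 20 sequences held 33 to 68 of them, and 446 lay on the plus and 460 on the minus strand. Their share of the strong regions ran from 35.3% on sequence 10 to 54.5% on sequence 7. Few had a divergent partner, a region on the other strand beginning within 1000 bp upstream. One was present for 15 members (1.66%), against 1.24% of root-higher and 1.31% of shoot-higher regions. In 1 such pair both partners were members, at sequence 16 (minus), bases 38949078 to 38949122, with 210 and 181 TPM in root and shoot, and on the plus strand at 38950018 to 38950099, with 64.8 and 48.3 TPM, begun 896 bp apart. A further region on the same strand within 1000 bp was present for 153 members (16.9%), 12.4% of root-higher and 16.3% of shoot-higher regions.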

How the data were processed

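The members and the lists used here were chosen with earlier results of these data known. The deposited count table lists unnormalized tag counts of the 4 libraries at each stranded start, and was read up to its last whole line, on sequence 13 minus strand at 31697699. The deposited TPM table has 1 column per tissue. Where the tables share positions, TPM followed the pooled replicate tags raised to a power (1.001 in root and 0.9943 in shoot), and TPM were turned back into tags with it. The authors' cluster lists give TPM scores and the number (count) of start positions. The sources used here do not name the aligner or the handling of multiply mapped reads, and tags of duplicated genes could be split. The build is given only through the sequence names of the files, so positions should not be read on another assembly. Coordinates are those of the files, counted from 1.

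Tags were summed per region. EdgeR 4.0.16 (TMM, filterByExpr, quasi-likelihood) was fitted to the 7183 of 15741 covered regions that passed the filter on low counts, all 610 covered members among them, with tissue as the only term. For start use, positions with 10 or more tags over the libraries entered diffSpliceDGE, which left 609 members with enough positions. DESeq2 1.42.0 and limma 3.58.1 were alternatives. Both edgeR tests were tested on simulated data with known changes, of which the test of start use missed most, so regions it did not call may differ. The regions named were the 10 strongest members, the 6 with the smallest p for start use, the 3 narrowest and 3 widest, the 3 with the largest replicate ratio and those next to a limit. Chi-square per degree of freedom between replicates over the members was 7.14 in root and 4.81 in shoot, so replicates were not the same counts deposited again, which does not show that they are independent samples. Profile distances, shifts of the median start, exchanged starts, main starts moved by 100 bp or more and neighbours were not among the results listed at the outset.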

Additional observations from a re-analysis of the deposited data

How the results depend on the processing

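The number of members was 531 with the tighter ratio limit, 1402 with a limit of 2 and 579 with sums of 50 TPM or more. Other joining distances, sums of 20 TPM, pooled tags scaled to a common total and, in the covered part, TMM scaling moved it by under 1.5 times, to between 905 and 1225 of all regions and to 722 of the covered ones.

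Of the covered members, edgeR called 43 to 101 between tissues when 1 library was left out, 0 scaled to total tags (13 at an unadjusted p below 0.05), and DESeq2 called 9, against 103. Start use was called in 2 to 11 members with 1 library left out, against 9. It was called in 37 by the F test over positions, 5 with positions of 3 or more tags, 17 in bins of 10 bp and 57 by limma's diffSplice. Of the 9, 2 were also called without shoot replicate 1 and 2 without shoot replicate 2. With a replicate block, start use was called in 15 members, 8 of the 9 among them, and 80 members were called between tissues. The replicate numbers share no stated source, and the log2 replicate ratios of root and shoot correlated at -0.05 over 7183 regions.

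The share of members with the same most used start in root and shoot averaged 74.9% over the 4 pairs. It was 79.7% without thinning, 65.3% with 20 tags and 82.7% when starts within 5 bp counted as the same. The width difference kept its sign under every alternative tried, from -0.5 to -4.0 bp. With the width of 5% to 95% of tags the tissues overlapped, at 48 and 47 bp in root and 48 and 46 bp in shoot. The median replicate differences moved to 0.20 in root and 0.22 in shoot with total tags. Members had as few as 93 pooled tags in a tissue, which limits the tests of single starts.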
